A study of Mus musculus with 6 samples.

Results

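The miR-297, miR-466, miR-467 and miR-669 families are groups of short RNAs found in rodents, most of which are cut from hairpins in an intron of the mouse gene Sfmbt2. Their probes were followed here on 6 arrays of mouse liver. Members were all mouse probes whose array name begins with 1 of these 4 family numbers and carries no star, the mark that older miRBase releases gave to the minor strand of a hairpin. This rule takes 57 of the 1096 mouse probes: 3 of miR-297, 27 of miR-466, 8 of miR-467 and 19 of miR-669. Of the 57, 6 probes name more than 1 miRNA and cannot tell these apart.

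STAM mice gave 3 samples of hepatocellular carcinoma (HCC) and 2 of non-tumour (NT) liver, and a mouse of the control strain gave the 1 normal liver. STAM is a model of non-alcoholic steatohepatitis that goes on to liver cancer. Per the labels, STAM mice received streptozotocin (STZ), a toxin of insulin-producing cells, and a high-fat diet, they bear HCC at 18 weeks, and all samples have a C57BL6 background. The labels give neither the treatment, diet and age of the normal mouse nor whether HCC 2-1 and HCC 2-2 come from separate animals, so the spread between arrays of a group may in part be technical. In whole tissue, fewer cells of a type and less RNA per cell cannot be told apart.

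A miRNA is cut from a hairpin and guides silencing proteins to messenger RNAs that pair with its seed, bases 2 to 8 of the mature strand. Each hairpin can give a product from its 5′ side (5p) and its 3′ side (3p). Sfmbt2 is a Polycomb-group gene that is imprinted in mouse, and its miRNA cluster is best known from the placenta and from embryonic stem cells, where the paternal copy is read. Liver is not the tissue for which the families are known, though single members have been studied there: miR-467b is known to repress lipoprotein lipase in fatty mouse liver, and miR-669c was described in ageing mouse liver.

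The families do not lie wholly in Sfmbt2. In the RefSeq annotation of build GRCm38.p6, 81 hairpin genes carry the 4 family names, 71 of them inside Sfmbt2 (chr2:10370440-10595253) and 10 on other chromosomes. By the symbols of their hairpins, 44 members come from Sfmbt2 only, 9 from other places only, and 4 from both. The 9 are miR-467g on chromosome 5, miR-467f on 11, miR-466i-3p and miR-466i-5p on 13, miR-467h on 9, miR-466j on 10, and miR-669n, miR-466q and miR-466k on 3. The 4 with hairpins in both are miR-297a, with a further hairpin on chromosome 7, and miR-466f, miR-466f-3p and miR-466f-5p, with a further hairpin on chromosome 13. The name of the cluster thus covers most of the members but not the whole of them.

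Inside Sfmbt2 the hairpins run in tandem over 51.6 kb, between Mir466m (chr2:10466663-10466746) and Mir669h (chr2:10518155-10518279). They comprise 5 Mir297, 23 Mir466, 14 Mir467 and 29 Mir669 hairpins of 73 to 127 bases, with a median gap of 209 bases and a longest gap of 2575 bases. A unit of Mir467, Mir466 and Mir669 in that order recurs 11 times and takes up 33 of the hairpins. All of the 10 Mir467a hairpins except Mir467a-6, which no Mir466 hairpin follows, begin such a unit, and Mir467b and Mir467c begin the others. Neighbouring Mir467a hairpins lie at a median distance of 2462 bases from start to start (2413 to 4880). A probe for miR-467a, or the shared probe of miR-466b-3p, miR-466c-3p and miR-466p-3p, therefore reads the summed product of several hairpins.

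**Figure D1:**
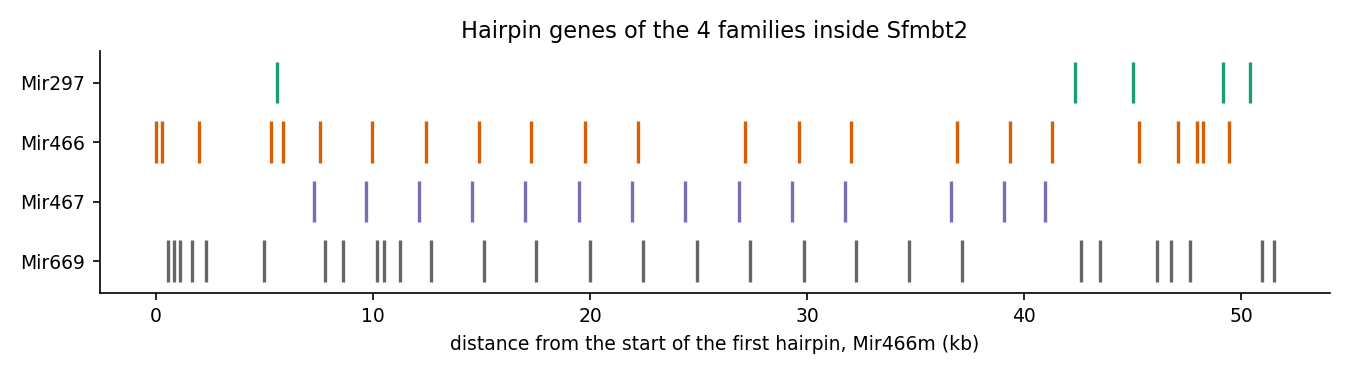
Each vertical line is 1 hairpin gene of the Mir297, Mir466, Mir467 or Mir669 family inside Sfmbt2, placed by its distance in kb from the start of the first hairpin, Mir466m. The 71 hairpins span 51.6 kb, and in the middle of the span Mir467, Mir466 and Mir669 hairpins recur in the same order 11 times.

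Mature sequences of 8 members matched the RefSeq table by name, all of them from hairpins outside Sfmbt2. They are shown because they are the members with a matched sequence and because each holds a run of alternating U and G or of alternating A and C, which few mature sequences of the table do. Each is printed 5′ to 3′ with its seed in capitals.
miR-466i-3p: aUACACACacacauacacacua
miR-467f: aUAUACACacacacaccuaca
miR-467g: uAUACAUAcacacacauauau
miR-466q: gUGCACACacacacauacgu
miR-466j: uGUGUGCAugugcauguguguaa
miR-466k: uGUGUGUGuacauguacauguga
miR-467h: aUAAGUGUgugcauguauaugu
miR-669n: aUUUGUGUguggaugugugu

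The first 4 hold a run of alternating A and C of at least 6 bases, which 1.02% of the 1674 different mature mouse sequences in the table hold. The other 4 hold such a run of U and G, which 1.91% of the table hold. None holds both. The 8 seeds are all different, so no pair of these members shares a seed, but each sequence equals another of the 8 at 15 to 17 aligned positions. The family name alone does not set the repeat: miR-466i-3p and miR-466q are of the A and C kind, whereas miR-466j and miR-466k are of the U and G kind.

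The repeats reach beyond the mature strand. Of 2 hairpins shown for this reason, Mir466k (chr3:85467377-85467498, plus strand) opens with a UG repeat of 22 bases and Mir297-1 (chr7:10958437-10958512, minus strand) with a UAUG repeat of 20 bases, in capitals below.
Mir466k: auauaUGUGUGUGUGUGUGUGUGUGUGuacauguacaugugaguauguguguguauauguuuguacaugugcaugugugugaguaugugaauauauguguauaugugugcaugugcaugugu
Mir297-1: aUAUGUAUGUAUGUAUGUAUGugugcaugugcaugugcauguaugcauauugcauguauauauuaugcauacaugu

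Most of the families were at or close to the level of empty spots in every liver. A spot counted as above background where its raw intensity lay over 2 SD above the mean of the blanks on its array, a threshold of 20.7, 17.8 and 16.8 scanner units in HCC 1, 2-1 and 2-2, 14.5 and 15.3 in NT 1 and 2, and 15.4 in normal liver. On that measure 14, 20 and 23 of the 57 members were above background in HCC, 24 and 29 in NT and 16 in normal liver. These are 24.6% to 50.9% of the members, beside 36.8% to 49.3% of all mouse probes, 25.6% to 48.7% of the 39 viral miRNA probes and 4.18% to 8.75% of the blank spots. The members were thus seen above background about as often as miRNAs of viruses, and more often than blanks. Of the 24 negative control spots, 4.17% to 25% passed the same threshold, on each array a smaller share than of the members.

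The signal behind these calls was small. The median member stood 0.362, 1.86 and 0.790 units over the blank mean in HCC, 1.51 and 2.85 units in NT and 0.794 units in normal liver. The SD of the blank spots was 1.52, 1.35 and 1.32 units in HCC, 1.02 and 1.08 in NT and 1.08 in normal liver. Since the scanner records whole units, 21 to 34 members per array lay within 2 units of the threshold. Only 5 members stood more than 10 units over the blank mean on any array, and only miR-466i-5p more than 20. Liver itself was plain on the same arrays: miR-122, the defining hepatocyte miRNA, had log2 values of 11.61, 12.38 and 12.65 in HCC, 12.65 and 12.38 in NT and 12.38 in normal liver.

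**Figure D2:**
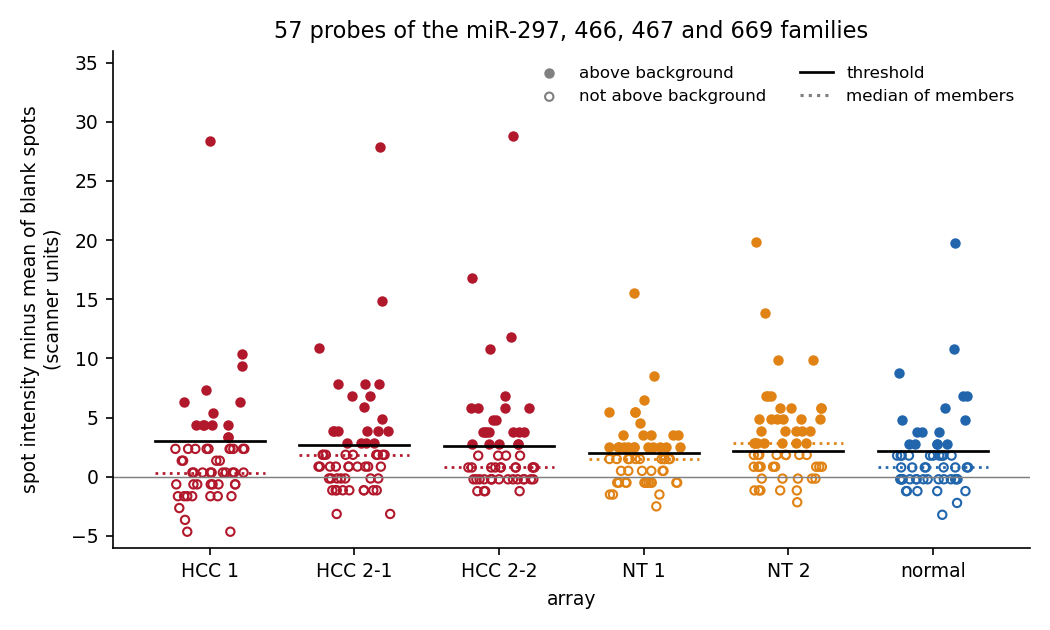
Raw spot intensity minus the mean of the blank spots, in scanner units, for the 57 members on each array; filled points are above background and open points are not. The black line is the threshold and the dotted line the median of the members, which lies between 0.362 and 2.85 units and passes the threshold on NT 2 only.

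Which members were seen depended on the array. Of the 57, 16 were above background on no array, 11 on 1, 6 on 2, 10 on 3, 4 on 4, 3 on 5 and 7 on all 6. At least 1 HCC array showed 31 members and at least 1 NT array 38, with 28 in common, which is 90.3% of the first list and 73.7% of the second. Another 3 members were seen on HCC arrays only and 9 on NT arrays only, and no member was seen in normal liver alone. Such patterns were not counted over all mouse probes, so 3 beside 9 is not read as a difference between the groups. Of all mouse probes, 486, 525 and 540 were above background in HCC and 478 and 490 in NT. Of the 31 seen in HCC, 7 were above background on every HCC array, and of the 38 seen in NT, 15 were so on both NT arrays.

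By place, members with a hairpin outside Sfmbt2 were seen more often. Above background on at least 2 arrays, the filter used for testing, were 18 of the 44 members from Sfmbt2 only (40.9%), 8 of the 9 from elsewhere (88.9%) and all 4 with hairpins in both, beside 613 of 1095 mouse probes (56.0%). By family, the filter was passed by 1 of 3 miR-297, 16 of 27 miR-466, 5 of 8 miR-467 and 8 of 19 miR-669 probes. By strand as named, it was passed by 7 of 16 5p probes, 9 of 15 3p probes and 14 of 26 probes with no strand in the name. In all, 30 of 57 members (52.6%) were tested, and 22 of these 30 had a mean log2 intensity in the lower part of the tested miRNAs, below their median.

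Values below are log2 intensities after background correction with an offset of 50 and quantile normalization. On this scale the mouse probes above background on no array had a median of 5.77, and differences of dim probes are pressed toward 0. The 7 members above background on every array are given in full. The first is miR-466i-5p, whose hairpin on chromosome 13 (chr13:17747473-17747593) also gives miR-466i-3p. Its raw intensity was 46, 43 and 43 units in HCC, 28 and 33 in NT and 33 in normal liver. Its log2 values were 6.24, 6.29 and 6.21 in HCC, 6.21 and 6.19 in NT and 6.45 in normal liver. Raw intensities of HCC lay above those of both other groups, whereas after normalization HCC and NT nearly met and normal liver was highest. The scanner gain moved with the raw values: it was 41, 39 and 39 on the HCC arrays and 38 on the NT and normal arrays, and the gain and the tumours cannot be told apart.

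miR-466h-3p comes from a hairpin in Sfmbt2, whose 5p strand is known to promote apoptosis in cultured rodent cells. Its log2 values were 5.90, 6.04 and 6.04 in HCC, 6.02 and 6.08 in NT and 6.20 in normal liver. Its raw intensities were 27, 30 and 31 units in HCC, 21 and 27 in NT and 24 in normal liver. HCC and NT overlapped on both scales. The 5p strand, miR-466h-5p, was above background on all arrays except HCC 2-1, with log2 values of 5.90, 5.77 and 5.81 in HCC, 5.81 and 5.81 in NT and 5.85 in normal liver.

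miR-669f-5p, from the opening stretch of the Sfmbt2 cluster, had log2 values of 5.84, 5.90 and 5.97 in HCC, 5.91 and 5.92 in NT and 6.02 in normal liver. The shared probe of miR-466m-5p and miR-669m-5p, whose hairpins include the first of the cluster, had 5.86, 5.93 and 5.88 in HCC, 5.91 and 5.92 in NT and 5.85 in normal liver. In both, every NT value lay inside the range of the HCC values. The order of normal liver differed between these probes, highest for miR-669f-5p and lowest for miR-466m-5p and miR-669m-5p.

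miR-466f is on the chip as 3 probes, 1 without a strand and 1 for each strand, and its hairpins lie in Sfmbt2 and on chromosome 13. miR-466f had log2 values of 5.98, 5.93 and 5.86 in HCC, 5.98 and 5.86 in NT and 5.93 in normal liver. miR-466f-5p had 5.83, 5.97 and 5.97 in HCC, 5.94 and 5.86 in NT and 5.81 in normal liver. miR-466f-3p had 5.84, 5.93 and 5.86 in HCC, 5.88 and 5.84 in NT and 5.93 in normal liver. The 3 probes of this miRNA ranked the arrays differently, and HCC and NT overlapped in each.

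**Figure D3:**
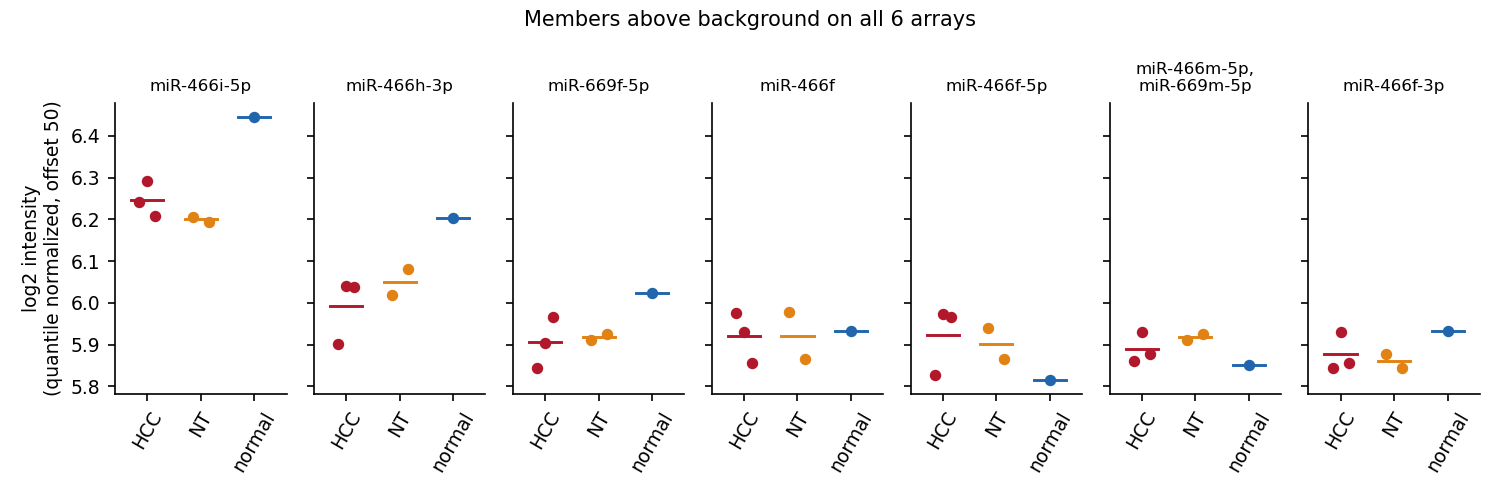
Log2 intensity of the 7 members above background on all 6 arrays; each point is 1 array and each line a group mean (HCC n = 3, NT n = 2, normal n = 1). The means of HCC and NT lie within 0.06 of each other in every panel. Normal liver lies above every HCC and NT array in miR-466i-5p, at 6.45, in miR-466h-3p, at 6.20, and in miR-669f-5p, at 6.02. It also does so narrowly in miR-466f-3p, at 5.932 beside 5.930 on HCC 2-1.

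The first comparison, HCC against NT liver of the same model, asks which miRNAs differ between tumours and non-tumour tissue. No member passed limma's moderated test at a Benjamini-Hochberg adjusted p of 0.05 (smallest adjusted p 0.658), and none of the 613 tested miRNAs did (0%). At an unadjusted p under 0.05 there were 0 of 30 members and 56 miRNAs in all (9.14%). Of the 30 tested members 9 were higher and 21 lower in HCC, with a median difference of -0.011 and a range of -0.11 to 0.05, beside 312 higher and 300 lower and a median of 0.0013 over all tested miRNAs. Groups that do not overlap were found for 2 of 30 members and for 145 miRNAs in all (23.7%).

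The 2 members whose HCC and NT arrays did not overlap lay in opposite directions. miR-669n, a chromosome 3 miRNA of the U and G kind printed above, had log2 values of 5.77, 5.82 and 5.74 in HCC, 5.84 and 5.84 in NT and 5.78 in normal liver. Its raw intensities were 18, 18 and 14 units in HCC and 15 and 17 in NT, above background on HCC 2-1 and both NT arrays only. The difference of HCC from NT was -0.07 (limma adjusted p 0.658). miR-466i-5p averaged 6.25 ± 0.04 in HCC (SD, n = 3) and 6.20 ± 0.0087 in NT (SD, n = 2), a difference of 0.05 with an SE of 0.04 (limma adjusted p 0.760). Neither difference passed the test.

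The 3 largest differences between HCC and NT came with 1 high NT array. The shared probe of miR-466a-3p and miR-466e-3p had log2 values of 5.79, 5.72 and 5.86 in HCC, 5.81 and 5.98 in NT and 5.81 in normal liver, a difference of -0.11 (limma adjusted p 0.720). miR-467a, the product of the 10 repeated hairpins, had 5.74, 5.77 and 5.79 in HCC, 5.78 and 5.95 in NT and 5.72 in normal liver, a difference of -0.09 (limma adjusted p 0.708). The shared probe of miR-466b-3p, miR-466c-3p and miR-466p-3p had 5.83, 5.84 and 5.79 in HCC, 5.81 and 5.997 in NT and 5.78 in normal liver, a difference of -0.08 (limma adjusted p 0.760). In all 3 probes NT 2 was the highest array and NT 1 lay within the HCC range. Toward higher values in HCC, miR-669o-5p differed by 0.03 (limma adjusted p 0.840) and miR-467h by 0.03 (limma adjusted p 0.916). miR-467h was above background on HCC 1 and 2-1 and on no NT array. With NT values counted as no lower than the lowest one above background, its ratio of HCC to NT was 1.00.

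The second comparison sets NT liver against normal liver, of which there is 1 array, so the test takes its spread from the HCC and NT arrays. Again no member passed (smallest adjusted p 0.295), with 1 of 613 miRNAs passing (0.163%). At an unadjusted p under 0.05 there were 2 of 30 members and 77 miRNAs in all (12.6%). Members were higher in NT in 14 cases and lower in 16, with a median difference of -0.0034, beside 298 higher and 315 lower and a median of -0.0021 over all tested miRNAs.

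The 2 members below an unadjusted p of 0.05 were both lower in NT. miR-466i-5p differed by -0.25 with an SE of 0.05 (limma p 0.00509, adjusted p 0.295). miR-466m-3p, the other strand of the first hairpin in the cluster, had log2 values of 5.78 and 5.86 in NT, against 6.02 in normal liver, a difference of -0.20 with an SE of 0.07 (limma p 0.0315, adjusted p 0.364). miR-466i-3p, the partner strand of miR-466i-5p, had 5.84 and 5.90 in NT and 6.02 in normal liver, a difference of -0.15 (limma adjusted p 0.416). Both strands of the Mir466i hairpin were therefore highest in the normal liver, neither past the threshold. With median scaling in place of quantile normalization the difference of miR-466i-5p was -0.01, and in raw units NT had 28 and 33 and normal liver 33, so its size depends on the normalization.

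Toward higher values in NT, miR-467a differed by 0.14, miR-669f-3p by 0.12 and miR-466d-3p by 0.11, with limma adjusted p of 0.501, 0.499 and 0.434. None of the 3 was above background in normal liver, where each had a log2 value of 5.72. With normal liver raised to its lowest value above background, the ratios of NT to normal liver were 1.06, 1.04 and 1.03. For each probe only 1 of 2 NT arrays was above background, so these ratios are no lower limits of a true difference.

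The third comparison, HCC against normal liver, uses the same normal array and the same HCC arrays as the others. No member passed (smallest adjusted p 0.181), with 1 of 613 miRNAs passing (0.163%). At an unadjusted p under 0.05 there were 4 of 30 members, all lower in HCC, and 99 miRNAs in all (16.2%), a share near that of the members. These 4 were miR-466i-5p at -0.20 (limma p 0.00917, adjusted p 0.181), miR-466m-3p at -0.19 (p 0.0325, adjusted p 0.289), miR-466i-3p at -0.17 (p 0.0358, adjusted p 0.297) and miR-466h-3p at -0.21 (p 0.0378, adjusted p 0.297). All 4 belong to the miR-466 family, which makes up 16 of the 30 tested members, and the first 3 include both strands of Mir466i. For miR-466m-3p the HCC values were 5.86, 5.87 and 5.77, and for miR-466i-3p they were 5.79, 5.90 and 5.86, both against 6.02 in normal liver.

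Direction depended on the normalization for 2 of these 4. With median scaling the difference of HCC from normal liver was 0.17 for miR-466i-5p and 0.02 for miR-466h-3p, whereas it was -0.08 for miR-466m-3p and -0.07 for miR-466i-3p. Over all 30 tested members 11 were higher and 19 lower in HCC, with a median of -0.017, beside 319 higher and 294 lower and a median of 0.0055 over all tested miRNAs. Toward higher values in HCC, miR-669f-3p differed by 0.11, miR-466f-5p by 0.11 and miR-466d-3p by 0.10, with limma adjusted p of 0.436, 0.559 and 0.323. miR-669f-3p and miR-466d-3p were not above background in normal liver or on HCC 1. With normal liver raised to its lowest value above background, their ratios of HCC to normal liver were 1.04 and 1.03. With the chip as a block the difference of miR-669f-3p was -0.005.

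**Figure D4:**
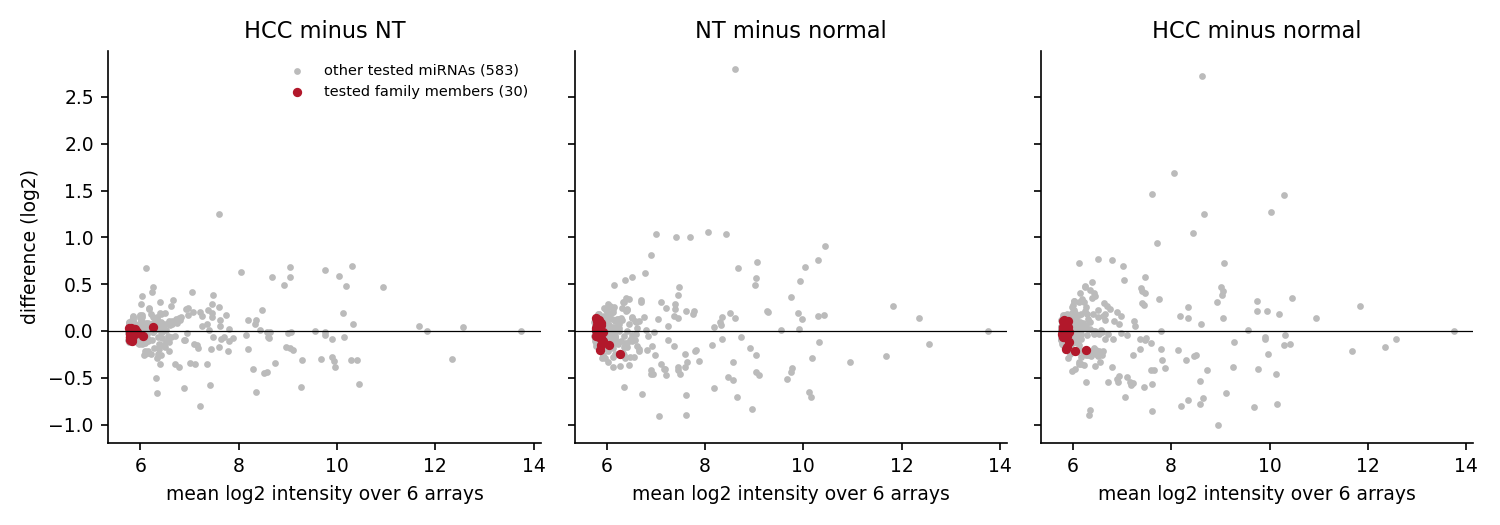
Difference in log2 intensity (vertical) against mean log2 intensity over the 6 arrays (horizontal) for the 30 tested members in red and the other 583 tested miRNAs in grey, 1 panel per comparison. The members lie at the dim end and between -0.25 and 0.14, while other miRNAs reach from -1.01 to 2.80.

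The median differences by family and place were small in each comparison. In HCC against NT the median differences were -0.0079 for 16 tested miR-466 members, -0.025 for 5 miR-467 members and -0.0056 for 8 miR-669 members, and the single tested miR-297 probe, miR-297a, differed by -0.01. By place, the 18 tested members from Sfmbt2 only had a median of -0.010, with 5 higher and 13 lower in HCC. The 8 from elsewhere had a median of -0.019, with 2 higher and 6 lower. The median of all tested members had an SD of 0.0232 between arrays of a group. That SD measures neither the spread of a group difference nor that of a smaller set of members. Against normal liver, a single array, the medians were -0.042 in NT and -0.043 in HCC for members from elsewhere. They were -0.040 in NT and -0.030 in HCC for miR-467, and -0.024 in HCC for miR-466. The other family and place medians against normal liver lay between -0.015 and 0.023, and none of these medians was tested.

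The star probes carry the names of the minor strands of these families. Of 15, 14 matched a hairpin of the families by symbol and miR-297a-5* did not. Of the 15, 10 were tested, and 4, 8 and 8 were above background in HCC, 5 and 8 in NT and 4 in normal liver. In HCC against NT 1 was higher and 9 were lower, with a median of -0.020. Over all tested miRNAs 312 were higher and 300 lower, with a median of 0.0013. None of the 10 passed limma's test (smallest adjusted p 0.536), nor did any of the 613 tested miRNAs. At an unadjusted p under 0.05 there was 1 of the 10, miR-669p*, beside 56 of the 613 miRNAs (9.14%). Groups that do not overlap were found for 2 of the 10, beside 145 of the 613 (23.7%), so neither count stands out. miR-669p* had log2 values of 5.84, 5.84 and 5.84 in HCC, 5.91 and 5.98 in NT and 5.81 in normal liver, a difference of HCC from NT of -0.10 (limma p 0.0299, adjusted p 0.536). Whether star probes and members differ was not tested. The only star probe above background on every array was miR-669c*, with log2 values of 5.94, 6.02 and 5.97 in HCC, 5.98 and 5.98 in NT and 6.06 in normal liver. Its partner strand miR-669c had 5.79, 5.84 and 5.81 in HCC, 5.81 and 5.79 in NT and 5.81 in normal liver.

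Some members were looked up for their known roles after their values had been seen. miR-467b, the miRNA tied to lipoprotein lipase, was above background on no array, with raw intensities of 16, 14 and 14 units in HCC, 12 and 15 in NT and 12 in normal liver. miR-669c, known from ageing liver, was above background on HCC 2-1, HCC 2-2 and NT 1, and HCC differed from NT by 0.02 (limma adjusted p 0.922). miR-466l-3p, known to pair with interleukin 10 messenger RNA in mouse macrophages, was above background on NT 1 only, at 15 units. A change of miR-467b or miR-466l-3p was not detectable at this signal.

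The authors' own processed intensities, which are linear and scaled to a median of 25 per array, gave values for 24, 26 and 29 members in HCC, 28 and 35 in NT and 24 in normal liver. For miR-466i-5p they were 99.8, 120 and 108 in HCC, 101 and 107 in NT and 111 in normal liver, and for miR-466h-3p 52.5, 66.3 and 64.3 in HCC, 53.0 and 62.6 in NT and 57.4 in normal liver. On these values HCC and NT overlapped, and normal liver lay inside the HCC range for both probes. Only 15 members had a value on every array.

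On the log2 of these values 2 of the 15 members were higher and 13 lower in HCC than in NT, with a median difference of -0.29, beside 146 higher and 202 lower and a median of -0.07 over 348 miRNAs. The median of the 15 members was 18.0, 25.6 and 21.8 in HCC, 25.1 and 26.0 in NT and 24.7 in normal liver, so that HCC 1 was the lowest array. Without HCC 1 the counts were 5 higher and 10 lower, with a median of -0.10, beside -0.02 over all. No member passed limma's test on these values in any comparison, with smallest adjusted p of 0.396, 0.299 and 0.106. The member nearest to it between HCC and NT was miR-466g, at 7.19, 12.7 and 9.57 in HCC, 23.1 and 15.96 in NT and 13.3 in normal liver, a difference of -1.004 on the log2 scale with an SE of 0.33 (limma p 0.0150, adjusted p 0.396). On the scanner values with the offset of 50 the same difference was 0.009 (adjusted p 0.963).

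**Figure D5:**
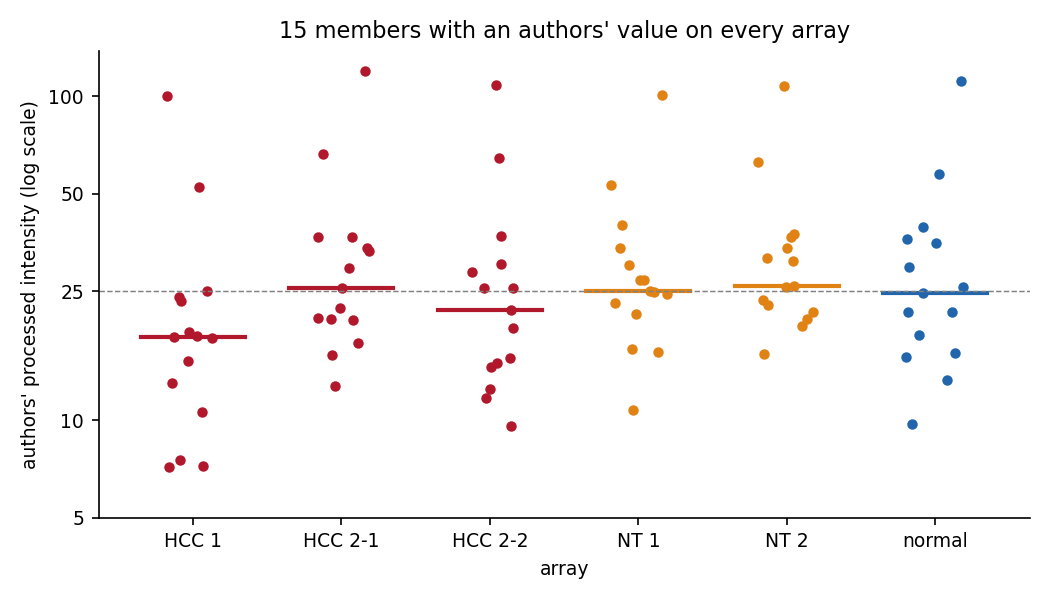
The authors' processed intensity, on a log axis, of the 15 members with a value on every array; each point is 1 member, each bar the median of the 15, and the dashed line marks 25, the median of each array over all its values. The bar of HCC 1 is the lowest, at 18.0, and those of the other arrays lie between 21.8 and 26.0.

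Against normal liver the authors' values place the 15 members at a median of 0.08 in NT and -0.03 in HCC. The medians over all 348 miRNAs were 0.33, with 241 higher and 107 lower in NT, and 0.32, with 232 higher and 116 lower in HCC. Normal liver had the fewest values, 515 beside 560 to 610 mouse probes on the other arrays. The part of the scaling in these medians was not tested. Relative to the medians over all 348 miRNAs the members stood at -0.25 in NT and -0.35 in HCC. miR-466i-3p had 18.0, 25.6 and 14.6 in HCC, 21.3 and 23.5 in NT and 39.3 in normal liver. miR-466m-3p had 10.6, 20.5 and 11.7 in HCC, 16.6 and 26.0 in NT and 36.2 in normal liver. In both, the normal array was the highest of the 6, and their adjusted p in HCC against normal liver were 0.133 and 0.106, short of the threshold.

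Markers of other cell types were read on the same arrays. Each sum given is the log2 of summed intensities, in which the brightest markers weigh most. The erythroid list holds 3 markers, 2 of them above background on all arrays. Its sum was 9.43, 9.13 and 9.45 in HCC, 9.44 and 9.37 in NT and 7.59 in normal liver. Most of that gap came from miR-451, at 9.17, 8.80 and 9.17 in HCC, 9.17 and 9.08 in NT and 6.32 in normal liver, while miR-144 in normal liver, 5.85, lay inside its HCC range. The sum of 5 mesenchymal markers, all above background throughout, was 9.002, 8.91 and 8.93 in HCC, 9.33 and 9.52 in NT and 9.07 in normal liver. HCC and NT did not overlap in the mesenchymal sum. The sum of 6 leukocyte markers, 5 of them above background on all arrays, was 8.94, 8.81 and 8.91 in HCC, 9.03 and 9.20 in NT and 8.76 in normal liver. The sums of 2 endothelial and 4 hepatocyte markers, all above background throughout, were 9.71 to 10.44 and 12.29 to 13.06 in HCC, 10.39 to 10.43 and 12.84 to 13.13 in NT, and 9.94 and 13.10 in normal liver. The leukocyte sum of HCC likewise lay below that of NT with no overlap, while in the erythroid, endothelial and hepatocyte sums HCC and NT overlapped. Normal liver lay below the STAM arrays in the erythroid and leukocyte sums. Among leukocyte markers this held for miR-223, at 6.32 in normal liver and 6.86 to 7.60 in the STAM arrays, and for dim miR-155. miR-146a was highest in normal liver, at 6.67, while miR-142-3p, miR-142-5p and miR-150 in normal liver lay inside their HCC ranges. Of the hepatocyte markers, miR-192, miR-194 and miR-148a were highest in normal liver, at 10.78, 10.25 and 8.80, and miR-122 was not. The part of these cells in the members' values was not tested. Each chip carried a pair of arrays, 1 chip NT 1 beside the normal liver, 1 chip HCC 1 beside NT 2, and 1 chip HCC 2-1 beside HCC 2-2. Within a chip, the median difference of the 30 tested members was -0.04 for HCC 1 minus NT 2 and -0.0064 for NT 1 minus normal liver, each from a single pair of arrays.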

How the data were processed

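Total RNA was labelled with Hy5 (miRCURY kit) and read on Toray mouse miRNA chips, design version 17, at 635 nm, per the labels and the file headers. The deposited scanner files hold unprocessed intensity, as pixel medians of spots and of the area around them; their headers name no normalization. A second deposited table holds the authors' processed intensity. Over all mouse probes its columns follow the scanner values linearly (r of 0.99996 or more), so it is neither logged nor centred per miRNA. Among the dim members the link is looser. On NT 1, miR-466f, miR-669f-5p and the shared probe of miR-466m-5p and miR-669m-5p all had 18 raw units. Their authors' values there were 30.1, 34.1 and 24.5. The steps that made it are not given in the sources used here.

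With limma 3.58.1 in R 4.3.3, intensities of all spots were corrected by normexp (offset 50), and the 1095 mouse probes were quantile normalized on the log2 scale (miR-434-5p, with a spot marked not OK, was left out). Blank spots were trimmed by 5% at each end before the threshold of mean plus 2 SD was set, and 613 probes above it on at least 2 arrays were tested in a 3-group fit of 6 arrays (3 residual and 1.63 prior degrees of freedom), 2-sided, with Benjamini-Hochberg adjustment over all tested probes of a comparison. The fit was tested on simulated data. A bound sets the brighter group's mean against the dim group's mean, in which an array's value counts as the lowest one above background where the probe lies under it. The number of arrays limits the precision.

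Groups came from sample titles. Members and lists were chosen with earlier results of these data known. Members named are those highest in mean log2 value among members above background on all arrays, and per comparison the 3 with the smallest p in each direction; others named were chosen after their values were seen. Hairpins were placed by symbol in RefSeq GRCm38.p6, and sequences are RefSeq's. Alternatives changed the offset, background, normalization, filter, starting values, variance prior, chip and replicate blocks and the arrays used. Treated HepG2 cells were not analysed here.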

Additional observations from a re-analysis of the deposited data

How the results depend on the processing

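Under 16 alternatives no family member passed the threshold in any comparison where it could be fitted; the smallest adjusted p of a member was 0.0959, for HCC minus normal with limma's trended and robust prior. Of 48 pairs of a named member and a comparison, 27 turned sign in at least 1 alternative. The median difference of the tested members moved by more than its SD between arrays (0.0232) in these cases. With the blank level subtracted it was -0.33 (HCC minus NT), -0.13 (NT minus normal) and -0.11 (HCC minus normal), while the medians of all tested miRNAs were 0.0094, 0.27 and 0.33. With the authors' values it was -0.29 (HCC minus NT) and 0.077 (NT minus normal). With median scaling it was 0.024 for NT minus normal and 0.014 for HCC minus normal. Over the 7 members above background on all arrays it was -0.072 for NT minus normal and -0.056 for HCC minus normal. An offset of 16 gave -0.045 for HCC minus normal, and the chip as a block gave -0.040 for HCC minus NT and -0.043 for HCC minus normal. The cause of these shifts was not tested, except that the filter on all 6 arrays leaves other members. Leaving single arrays out of the authors' values was an alternative chosen after seeing the data. HCC 1 had the greatest effect on the median for HCC minus NT, -0.10 without it beside -0.29 on all arrays. Leaving out HCC 2-1 moved it nearly as far the other way, to -0.46. Without HCC 2-2, NT 1 or NT 2 it was -0.32 to -0.20.

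Of all tested miRNAs, those passing numbered 0 with median scaling (NT minus normal), 1 without a filter (HCC minus NT), 5 and 14 with the authors' values (NT and HCC minus normal), 3, 5 and 8 with the trended prior (HCC minus NT, NT minus normal, HCC minus normal) and 0 with the chip block (NT and HCC minus normal). With the authors' values and 1 array left out they numbered 0 to 3 (HCC minus NT), 1 to 13 (NT minus normal; 13 without HCC 2-2 and 2 or fewer otherwise) and 1 to 22 (HCC minus normal; 1 without HCC 2-1 and 20 or more otherwise). With the scanner values, leaving out 1 array gave 0 to 1 in both comparisons with normal liver, and 0 without HCC 1, HCC 2-2, NT 1 or NT 2. The label number as a replicate block gave a member median of -0.014 for HCC minus NT and 0 members passing. Arrays of the same number correlated at 0.16, 0.02 and 0.15 in their deviations. With 2 NT arrays the deviations of 1 mirror those of the other, so these correlations cannot decide on pairing. The labels do not tie the numbers to animals, so the numbers are not taken as pairs. The members' dim signal, 0.362 to 2.85 units over the blanks at the median, limits all these comparisons.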
